A study of Cervus nippon with 40 samples.

Results

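Juvenile and adolescence were compared across 10 organs of male Sika Deer of the Shuangyang breed, a farmed deer whose antlers regrow every year. The comparison took the 20 libraries labelled juvenile (1 year) or adolescence (3 years) out of 40, with 10 libraries at each stage, and paired them by organ, which were adrenal, antler, brain, heart, kidney, liver, lung, skeletal muscle, spleen and testes. Small RNA was sequenced, and each library was a pool of equal amounts of RNA from 3 deer of the same stage. All organs of a stage came from the same 3 deer, so a difference between the stages cannot be told apart from a difference between these pools of deer, and p-values measured the spread between organs, not between deer. The labels name no treatment, and no deer was sampled at both stages.

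Known miRNAs were those with a cattle name (bta-) in miRBase. Of 336 such names in the 40 libraries, 290 had at least 1 read in these 20. A name was tested when it had at least 10 reads in at least 4 of the 20 libraries, which 110 names did. The 180 others with a read were too scarce to test, and the 110 held at least 99.6% of the miRNA reads of every library. Levels are given in RPM, reads per 1000000 miRNA reads of a library. Differences are given as adolescence minus juvenile on the scale of log2(RPM + 1) after TMM scaling, which sets the libraries so that most miRNAs stay level. With 1 added before the log, the change of scarce miRNAs was understated where both libraries were deep. A count of 0 in a shallow library could overstate a change, as in adolescence testes, where 1 read stood for 14.9 RPM.

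A miRNA is a short RNA that is cut from a hairpin precursor and guides Argonaute proteins to partly matching messenger RNAs, which are then repressed. Many miRNAs are transcribed as clusters and rise and fall together during growth. The cluster in the imprinted DLK1-DIO3 region is transcribed from the maternal chromosome and is known for high levels in embryonic and young tissue and in the adult brain. The miR-1 and miR-133 families are known from heart and skeletal muscle, where they act in muscle differentiation. Families were taken from the names.

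The depth of juvenile libraries ranged from 214726 miRNA reads in antler to 7759033 in skeletal muscle, with a median of 738374. Adolescence libraries ranged from 67231 in testes to 5452979 in skeletal muscle, with a median of 509324. Adolescence testes thus had the shallowest of the 20 libraries, in which 1 read stood for 14.9 RPM, against 0.129 RPM in juvenile skeletal muscle.

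Organ labels were checked against marker miRNAs. miR-1 was at 919513 and 917819 RPM in the juvenile and adolescence skeletal muscle and at 577640 and 814910 RPM in heart, and the cardiac miR-208a was highest in heart at both stages (16 and 14 reads). Neuronal miR-124a was highest in brain at both stages, at 57640 and 2446 RPM, against 31967 RPM in brain at adult and 37110 at aged. miR-7, abundant in endocrine cells, was highest in adrenal at 474297 and 590536 RPM, and miR-192, known from liver and kidney, was highest in kidney and second in liver at both stages. The liver markers miR-194 and miR-885 had 0 reads in liver at both stages, so liver rested on miR-192 alone. In kidney miR-196a was also highest of the organs at both stages, but miR-204 and miR-10a had 0 reads and miR-194 had 1 and 0. Markers did not settle testes, where miR-202 had 7 reads in the juvenile and 1 in the adolescence library and miR-449a had 0 and 6. In spleen, leukocyte miR-150 was highest of the organs at both stages (256 and 325 RPM), but miR-142-5p was higher in 3 other organs at both, and miR-142-3p had 0 and 4 reads. In antler miR-140, miR-199a-3p and miR-214 were highest of the organs at both stages. For lung no marker was used.

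The brain, lung and testes pairs had the lowest correlations between the 2 stages. By share of miRNAs past 2-fold, however, heart (64.4%) lay above testes (53.5%). Over the tested miRNAs, the log2 levels of juvenile and adolescence libraries correlated with r = 0.782 in brain, 0.891 in lung and 0.919 in testes, and with r = 0.934 to 0.987 in the other 7 organs. Among the libraries of all 4 stages, the adolescence lung was closest to aged spleen (r = 0.952) and the juvenile testes were closest to juvenile adrenal (r = 0.925). The other 18 libraries were closest to a library of their own organ. Calls are also given without the brain pair and without the 3 pairs together, and group medians without the brain pair where they differed by over 1.5 times.

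Over the 10 organs, limma with organ as the block called 3 of 110 miRNAs (2.73%) at an adjusted p below 0.05. miR-133c was higher at adolescence, and miR-409a and miR-493, both of the DLK1-DIO3 cluster, were lower. At an unadjusted p below 0.05 there were 14, of which 6 were higher and 8 lower. Means were higher at adolescence for 51 miRNAs (46.4%) and lower for 59 (53.6%), with a median difference of -0.06. The block of organ decided these calls, since the fit without it called 0. Leaving out the heart, kidney, liver, lung, skeletal muscle or testes pair gave 0 calls, leaving out spleen kept miR-133c alone, and leaving out brain raised the number to 22. DESeq2 called 10 higher and 2 lower, while limma called 0 with library depth as a covariate or with no minimum of reads.

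miR-409a, a miRNA of the imprinted cluster, was lower at adolescence in 9 of 10 organs. Its level fell from 3259 to 806 RPM in brain, from 647 to 172 in lung, from 482 to 149 in liver and from 1209 to 527 in spleen. It went from 85.6 to 16.4 RPM in heart, from 99.4 to 11.2 in skeletal muscle, from 1465 to 952 in testes, from 2240 to 1332 in kidney and from 1271 to 682 in antler. Adrenal, where miR-409a was most abundant, was the exception with 10204 RPM at juvenile and 13584 at adolescence. The ranges of the stages overlapped, because organs differed in level by more than stages did. The mean difference was -1.31 ± 0.297 (SE, n = 10 pairs), a 2.47-fold lower level (limma, adjusted p = 0.0316). Every library held at least 42 reads of miR-409a, so few reads were not a limit for it.

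miR-493, another miRNA of the DLK1-DIO3 cluster, was lower in all 10 organs after scaling. It fell from 121 to 21.8 RPM in kidney, from 85.1 to 4.61 in lung, from 61.2 to 29.2 in spleen and from 57.5 to 33.9 in adrenal. It went from 103 RPM to 0 in testes and from 2.59 RPM to 0 in brain, and from 9.13 to 3.03 RPM in liver, 6.97 to 0.781 in heart and 4.64 to 0.367 in skeletal muscle. Antler had 3 reads at each stage, with 14.0 RPM in both, so its place among the 10 came from scaling alone. The mean difference was -2.15 ± 0.507 (SE, n = 10 pairs; limma, adjusted p = 0.0316), with ranges that overlapped. The level was low: at least 10 reads were found in 7 juvenile and 2 adolescence libraries, and the loss to 0 in testes stood beside a depth that fell from 535668 to 67231 reads.

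miR-133c, of the muscle miR-133 family, was higher in all 10 organs. It rose from 667 to 1440 RPM in heart and from 158 to 323 RPM in skeletal muscle, on 1723 and 3687 reads and on 1225 and 1764 reads. Spleen went from 28.2 to 48.3 RPM on 24 and 43 reads. In the other 7 organs the difference rested on 0 to 4 reads at juvenile and 2 to 12 at adolescence, for example 1 and 12 reads in liver (2.28 and 36.4 RPM), 0 and 9 in kidney (0 and 24.5 RPM) and 2 and 8 in lung (1.91 and 12.3 RPM). The mean difference was 1.82 ± 0.393 (SE, n = 10 pairs; limma, adjusted p = 0.0316). Brain had 4 reads at juvenile and 2 at adolescence, so its higher RPM (3.45 and 5.43) came with fewer reads in a shallower library. A minimum of 10 reads in at least 10 libraries removed miR-133c from the test.

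**Figure D1:**
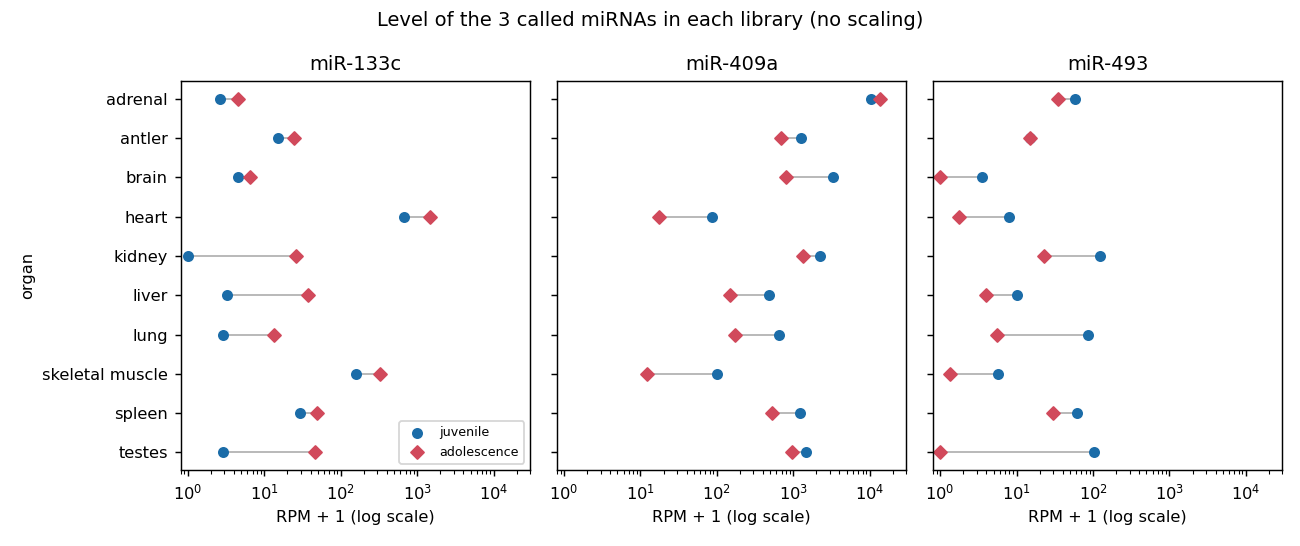
Level of miR-133c, miR-409a and miR-493 in each organ, as RPM + 1 on a log axis, with circles for juvenile and diamonds for adolescence, 1 pooled library each. miR-409a lies lower at adolescence in all organs but adrenal, and miR-493 reaches 0 RPM in brain and testes at adolescence.

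Mean levels at the later stages were compared as values. Over the 10 organs, the mean log2 level of miR-409a was 9.88 at juvenile, 8.68 at adolescence, 8.04 at adult and 7.85 at aged. miR-493 stood at 4.65, 2.60, 2.42 and 2.32 in the same order, and miR-133c at 3.64, 5.59, 4.32 and 4.72. The juvenile stage was the highest of the 4 for miR-409a and miR-493 and the lowest for miR-133c. These 3 were picked for their difference between juvenile and adolescence in the same libraries. That choice favours an extreme juvenile level, so its rank is no separate result. The change from juvenile to adolescence was tested against the change from adult to aged over all 40 libraries, which shares no library with it, and limma called 0 of 126 miRNAs (8 at an unadjusted p below 0.05; edgeR called 0, with 10 unadjusted).

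Direction was then counted by organ. At least 9 of 10 organs agreed on a higher level at adolescence for 6 miRNAs (5.45% of 110) and on a lower level for 7 (6.36%). All 10 agreed for miR-133c and miR-339a (higher) and for miR-493 (lower). At the other end, 38 miRNAs were higher in 4 to 6 organs. The exact sign-flip permutation test of the 10 paired differences (two-sided) cannot go below p = 0.00195, and over all 110 names its smallest adjusted p was 0.0716, so it called 0, with 20 at an unadjusted p below 0.05.

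Among the miRNAs with most organs higher at adolescence, miR-133c alone passed the limma test. miR-339a was higher in 10 organs by 0.56 ± 0.209 (SE, limma adjusted p = 0.216), from 16629 to 27813 RPM in liver and 2617 to 6870 in kidney, but by 0.02 in testes and 0.14 in spleen. On RPM without scaling, miR-339a was lower at adolescence in adrenal (4170 and 3937), heart (274 and 267) and lung (3019 and 2247). miR-133a was higher in 9 organs, with a mean difference of 1.08 ± 0.366 (adjusted p = 0.216). Heart, its most abundant organ, was the exception and went from 83958 to 29225 RPM, while skeletal muscle went from 8908 to 23850 and testes from 80.3 to 2677.

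miR-17-5p, the first member of the miR-17-92 cluster that is known to act in cell proliferation, was higher in 9 organs. Lung went from 359 to 2364 RPM and heart from 120 to 284, whereas brain went from 660 to 67.9. miR-374a was higher in the same 9 organs, from 24.8 to 261 RPM in lung and 24.7 to 115 in spleen, and had 252 reads at juvenile and 1 at adolescence in brain. Neither passed, with mean differences of 0.70 ± 0.424 and 0.61 ± 0.642 (limma adjusted p = 0.450 and 0.631).

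miR-22-5p was higher in 8 organs by 0.96 ± 0.272 (limma adjusted p = 0.0912), from 81.2 to 250 RPM in spleen and 20.6 to 69.7 in skeletal muscle, with antler (47 and 43 reads) and brain (226 and 46 reads) on the other side. miR-133b was higher in 8 organs, with heart going from 1500 to 386 RPM and skeletal muscle from 368 to 864. miR-671 was higher in 9 organs after scaling and in 8 in RPM, on 3 to 79 reads, and had 10 reads in juvenile testes and 0 at adolescence.

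On the lower side, miR-409b was lower in 8 organs, from 3959 to 185 RPM in lung, 703 to 66.8 in heart, 5070 to 1101 in testes and 8311 to 3144 in kidney. Adrenal went from 29907 to 41866 RPM and brain from 3658 to 12874, and the mean difference of -1.42 ± 0.493 did not pass (limma adjusted p = 0.216). In brain the miR-409 names thus differed in direction, with miR-409a lower and miR-409b higher.

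miR-134, a brain miRNA of the same cluster known to act at dendritic spines, was lower in 9 organs, with 77 reads at juvenile and 8 at adolescence in brain, and rested on few reads elsewhere. miR-215, a relative of miR-192, was lower in 9 organs after scaling and in 7 in RPM, from 82.2 to 6.06 RPM in liver (36 and 2 reads) but from 225 to 218 in kidney, where it was most abundant. miR-214, made from an antisense transcript of the DNM3 gene with miR-199a and known from mesenchymal tissue, was lower in 9 organs after scaling and in 8 in RPM, from 3305 to 480 RPM in lung and 441 to 70.3 in heart. In antler, which held most of it, miR-214 was at 15075 and 16469 RPM and lower only after scaling, and in brain it went from 20.7 to 258. None of these passed (limma adjusted p = 0.389, 0.259 and 0.679).

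miR-2904 was lower in 9 organs, and miR-2887 in 9 after scaling but in 7 in RPM, with antler (37.3 and 42.0 RPM) and testes (70.9 and 74.4 RPM) among the higher ones. Their names are on a list of cattle miRNA names that may hold fragments of other RNA classes, which was not tested here. miR-2904 went from 61 reads to 0 in lung and from 156 to 26.9 RPM in adrenal, and miR-2887 from 83.0 to 9.35 RPM in adrenal. In brain both went the other way, from 16.4 to 48.9 and from 11.2 to 176 RPM.

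**Figure D2:**
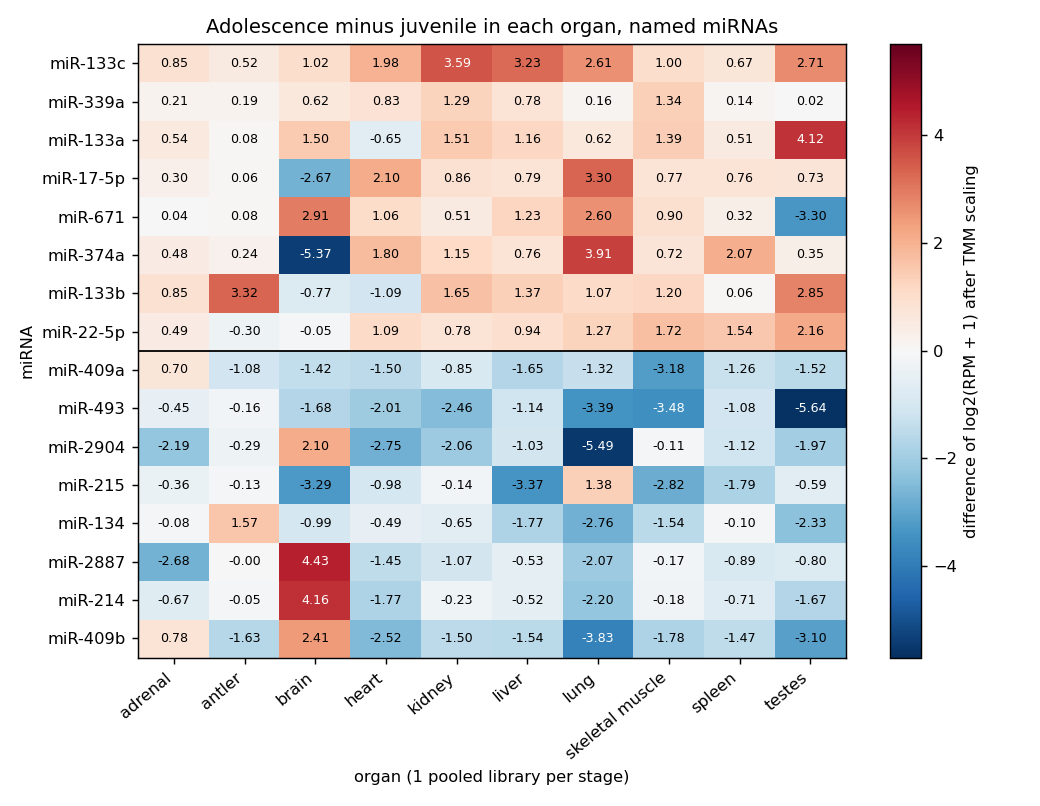
Difference of log2(RPM + 1) after TMM scaling, adolescence minus juvenile, for 16 miRNAs (rows) in 10 organs (columns), 1 library per stage and organ. The first 8 rows are higher and the last 8 lower in at least 8 organs, with ties at 8 settled by the size of the mean difference, and brain stands out with -5.37 for miR-374a, 4.43 for miR-2887 and 4.16 for miR-214.

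The DLK1-DIO3 cluster was then described as a group. Of 58 names on its list, 26 were measured and 7 tested. All 7 had a lower mean at adolescence, with a median of -1.14 against -0.06 for all 110, and 2 of them were called (background 1.82% lower). Besides miR-409a, miR-409b, miR-493 and miR-134, they were miR-433 (-1.14 ± 0.676), miR-3957 (-1.10 ± 0.662) and miR-431 (-0.58 ± 0.426), which did not pass with limma (adjusted p = 0.450, 0.450 and 0.487). The 19 members that were too scarce to test had 290 reads together.

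In brain and adrenal the cluster did not follow the other organs. The summed level of its 26 measured names was lower at adolescence in 8 organs, from 5132 to 392 RPM in lung, 877 to 87.9 in heart, 7193 to 2824 in spleen and 11447 to 4996 in kidney. Liver went from 3894 to 1291 RPM, testes from 7017 to 2261, antler from 4103 to 1882 and skeletal muscle from 242 to 51.9. Adrenal, the organ with most of the cluster at both stages, was higher at adolescence (41733 and 57848 RPM), and so was brain (8073 and 29428). miR-409b was the most abundant member in all 20 libraries, and in adrenal it stood at 29907, 41866, 79696 and 74422 RPM from juvenile to aged. In brain, miR-433 went from 785 to 12686 RPM and miR-3957 from 184 to 2855, while miR-409a and miR-134 were lower there. With the brain pair left out, 5 of 6 tested members were called lower (background 13%), with a median of -1.77: miR-409b, miR-493, miR-409a, miR-433 and miR-3957 at limma adjusted p of 0.00935 to 0.0169. With brain, lung and testes left out together, limma called fewer than 5 of all tested names lower, so these 5 calls did not all hold.

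**Figure D3:**
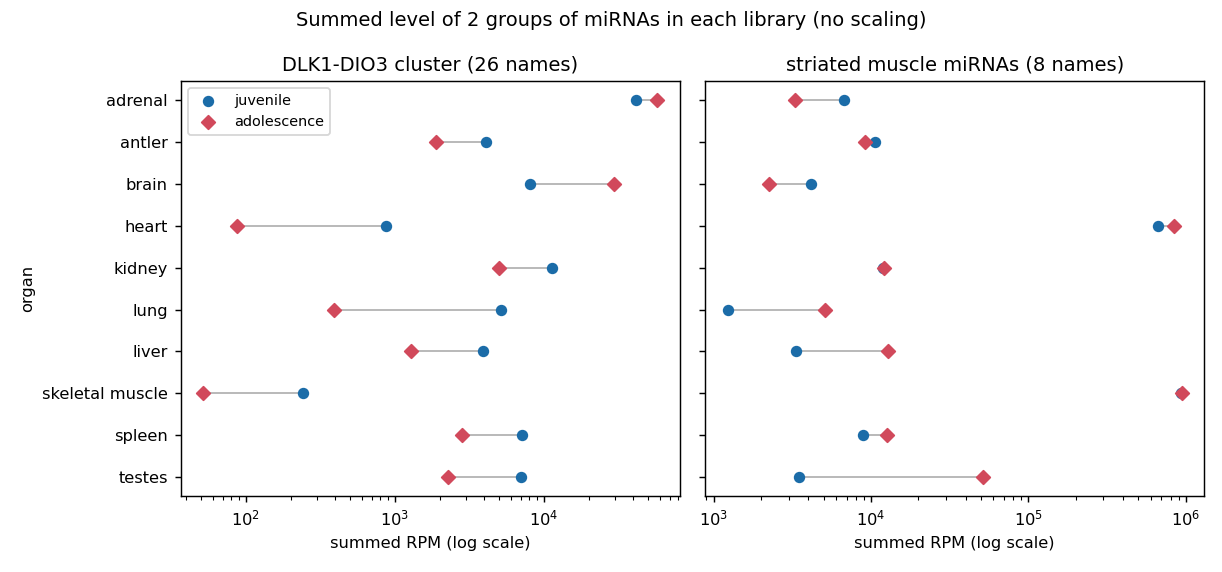
Summed RPM (log axis) of the 26 measured names of the DLK1-DIO3 cluster and of 8 striated muscle miRNAs in each organ, with circles for juvenile and diamonds for adolescence. The cluster lies lower at adolescence in 8 organs and higher in adrenal and brain, and the muscle group differs most in testes, from 3476 to 51375 RPM.

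Of the striated muscle miRNAs, all 8 on the list were measured and 4 tested. Each of the 4 had a higher mean at adolescence, with a median of 1.06 and 1 called, miR-133c (background 0.909% higher). miR-1 was higher in 5 organs and lower in 5 (0.79 ± 0.412, limma adjusted p = 0.390). It went from 3390 to 48579 RPM in testes, 2408 to 10797 in liver and 969 to 4815 in lung, and from 6601 to 3124 in adrenal.

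The muscle miRNAs outside muscle were at low shares. The sum over the 8 names was 663791 and 846046 RPM in heart and 928948 and 942861 in skeletal muscle, with miR-1 the most abundant in all 20 libraries, and between 1229 and 51375 RPM in the other 8 organs. It was lower at adolescence in adrenal (6732 and 3283 RPM), brain (4178 and 2264) and antler (10637 and 9133) and close to level in kidney (11896 and 12085). miR-206, miR-208a, miR-208b and miR-499, which mark skeletal muscle or heart, had 25, 30, 262 and 3 reads in the 20 libraries. In each of the other 8 organs, 4 or 5 of the 8 names were at 0. For each 1000 reads of miR-1, heart had 145 reads of miR-133a at juvenile and 35.9 at adolescence. Skeletal muscle had 9.69 and 25.99. The range over both stages was thus 9.69 to 145. Adrenal (19.3 and 48.6), antler (35.4 and 50.1), kidney (22.5 and 71.6) and testes (23.7 and 55.1) lay within this range at both stages. Lung went from 261, above the range, to 54.0 within it, and brain from 49.4 within it to 195 above it. Spleen (625 and 668) and liver (378 and 184) lay above the range at both stages. At adolescence alone, all 8 of these organs were above both heart and skeletal muscle. Carry-over of muscle or of RNA between libraries was not tested. With skeletal muscle and heart left out, miR-133c had too few reads to be tested, and miR-409a (-1.14) and miR-493 (-2.34) had a limma adjusted p of 0.256 each.

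In the miR-378 family, whose first member is known from energy metabolism, all 4 tested names had lower means with a median of -0.45, and miR-378 itself was lower in 8 organs, from 148974 to 32238 RPM in heart and 110223 to 87628 in spleen (-0.53 ± 0.229, limma adjusted p = 0.293). In the miR-30 family all 4 tested names had higher means with a median of 0.22 (0.41 without the brain pair). Both miR-29 names, known to repress collagens, had higher means (miR-29a by 0.90 ± 0.445, miR-29d-3p by 1.09 ± 0.670), and limma called none of these 10 names.

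Of 7 tested let-7 names, which are known to rise with differentiation, 6 had lower means, with a median of -0.07 (-0.34 without the brain pair) and 4 organs higher at the median. Of 6 in the group of miR-199a and miR-214 5 had lower means, with a median of -0.20. These counts include miR-3596 and miR-3604, which count nearly the same reads as let-7b and miR-199a-3p. In that group miR-3120, made from the strand opposite miR-214, was higher in 8 organs by 0.67 ± 0.246 (limma adjusted p = 0.216). The 3 leukocyte names tested had higher means (median 0.39), and so had 2 vessel names (median 0.43). The 1 red cell name tested, miR-486, had a lower mean (-0.42 ± 0.266). Of the 20 libraries miR-486 was highest in juvenile heart (22680 RPM, with 2936 at adolescence), and it went from 8599 to 2598 in lung. Red cell miR-451 had 2 reads in the 20 libraries, so the red cell list rested on miR-486 alone. Of 9 tested names that may hold fragments of other RNA classes, 4 had higher and 5 lower means (median -0.08, and -0.30 without the brain pair). Of 6 ruminant miR-2284 and miR-2285 names, of which miR-2284y and miR-2285u count nearly the same reads, 2 had higher and 4 lower means. None of these were called, and shifts in the share of blood or vessel cells cannot be told apart from shifts in level within cells in bulk tissue.

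The lists left had 1 or 2 tested names each. Means were lower for miR-124a (neuronal, -0.78 ± 0.560), miR-424-5p (of the miR-424 cluster and the miR-16 family, -1.11 ± 0.452), miR-140 (cartilage, -0.36 ± 0.310), miR-192 (-0.59 ± 0.579; 9093 and 73.3 RPM in brain) and both miR-26 names (-0.27 ± 0.611, but 0.27 without the brain pair). They were higher for miR-152 (0.46 ± 0.392), miR-24-3p (0.09 ± 0.311) and miR-196a (0.67 ± 0.532). However, miR-196a was lower in the 3 organs where it was most abundant, kidney (1575 and 1196 RPM), testes (153 and 89.2) and skeletal muscle (61.9 and 10.8). The 7 organs in which it was higher after scaling had 0 to 9 reads in each library. The second names tested were at -0.16 ± 0.391 for miR-450b, -0.27 ± 0.550 for miR-196b and 0.29 ± 0.453 for miR-106a of the miR-17-92 group. Cartilage miR-140 in antler was at 536 and 691 RPM. Without the brain pair, the medians went to -0.42 for the neuronal list, -0.38 for the miR-424 cluster, -0.47 for the miR-192 group, 0.81 for the miR-17-92 group, 0.72 for the miR-148 family, 0.33 for the miR-24 clusters and 0.11 for the Hox clusters. Limma called none of these names over the 10 organs, and the epithelial and germ line lists had no member with enough reads to test.

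Of the 10 miRNAs with the highest median level, limma called none. They were let-7b, miR-199a-3p, miR-145, miR-30c, miR-26a, miR-378 and miR-199a-5p, with the names miR-3596, miR-3604 and miR-26c that count nearly the same reads as let-7b, miR-199a-3p and miR-26a. Their mean differences ran from -0.53 for miR-378 to 0.16 for miR-145 (limma adjusted p = 0.293 to 0.954). Within single organs some of them moved far. miR-26a went from 335355 reads to 1664 in brain and from 50357 to 211391 in lung, which is 289143 to 4516 RPM and 48127 to 325107 RPM. let-7b went the opposite way, from 85558 to 416330 RPM in brain and from 313743 to 78892 in lung.

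Across the 110 miRNAs, the paired differences of brain correlated below 0 with those of each of the 9 other organs (r = -0.70 with lung to -0.02 with skeletal muscle, median -0.17), whereas all 36 pairs among the other 9 organs correlated above 0 (r = 0.01 to 0.76, median 0.32). Heart and lung were the most alike pair. The miRNAs are not independent, each organ enters through a single pair of libraries, and all libraries of a stage share their deer, so these are descriptions. In all, 41 miRNAs were higher in both heart and lung and lower in brain, and 29 were the reverse.

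**Figure D4:**
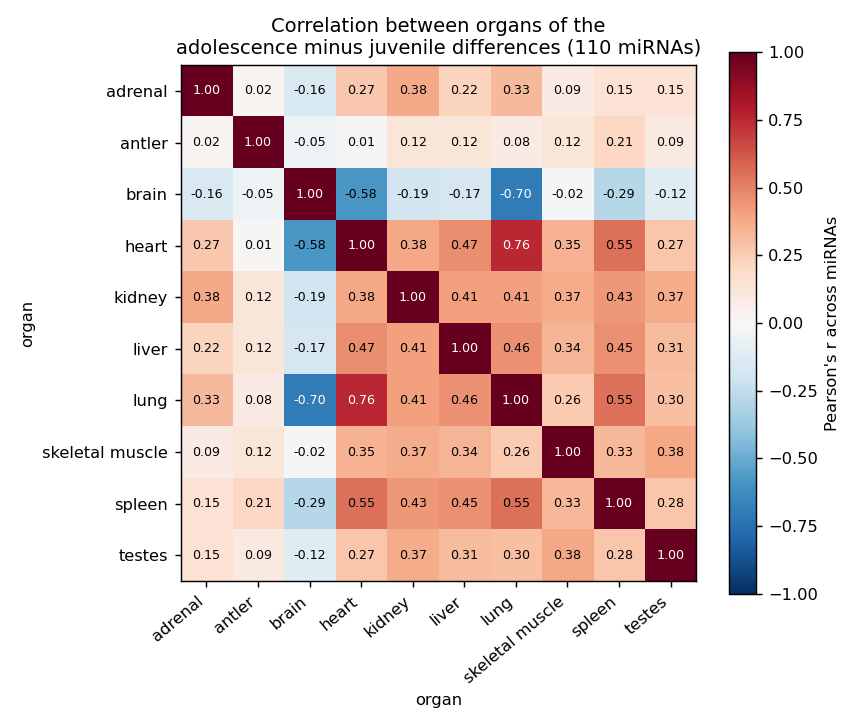
Pearson's r across 110 miRNAs between the adolescence minus juvenile differences of each pair of organs. The row of brain is below 0 throughout, down to -0.70 with lung, and heart and lung reach 0.76.

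Without the brain pair, limma called 22 of 108 miRNAs (20.4%), 8 higher (7.41%) and 14 lower (13%). Those higher were miR-133c, miR-17-5p, miR-374a, miR-22-5p, miR-22-3p and its second name miR-3600, miR-30b-5p and miR-29a. miR-17-5p and miR-374a were higher in all 9 organs left, by 1.05 ± 0.291 and 1.25 ± 0.336 (limma adjusted p = 0.0229 and 0.0210). In the brain pair itself, 19 of the 22 called miRNAs went the other way, all but miR-133c, miR-409a and miR-493. Those 3 were already called with brain included. The 19 gained their call when brain was left out, which favours miRNAs that brain opposed, so their count is no separate result.

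Lower without brain, besides the 5 of the DLK1-DIO3 cluster, were miR-2904, miR-2887, miR-423-5p, miR-574, miR-214, miR-1343-3p, miR-125a, miR-3432a and miR-151-3p. miR-423-5p fell by 1.32 on the log2 scale (limma adjusted p = 0.0164), from 290 to 35.4 RPM in lung and 863 to 352 in liver, but spleen was higher in RPM (276 and 293) and lower only in the scaling without brain. miR-574 was lower in 8, from 7745 to 4722 RPM in liver and 4220 to 764 in lung (limma adjusted p = 0.0210), whereas in brain it went from 63.8 to 1276. With brain, lung and testes left out together, limma called 2 higher and 4 lower.

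Within each organ 1 library stood on either side, so counts past 2-fold have no replicate check. Brain had the most, 38 higher and 45 lower of 105 compared (79% past 2-fold), followed by lung (29 and 36 of 97, 67%), heart (32 and 33 of 101, 64.4%) and testes (13 and 41 of 101, 53.5%). Kidney had 18 and 13 of 103 (30.1%), skeletal muscle 17 and 9 of 89 (29.2%), adrenal 14 and 12 of 106 (24.5%) and liver 8 and 13 of 93 (22.6%). Spleen with 9 and 6 of 97 (15.5%) and antler with 2 and 9 of 77 (14.3%) had the fewest.

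The split between higher and lower depended on scaling in testes, heart, adrenal and antler. Scaled to total miRNA reads, testes had 31 higher and 26 lower, heart 14 and 46, adrenal 7 and 19 and antler 4 and 5. TMM scaling shifted the differences by -0.90 in testes and 0.87 in heart against total reads, and miR-1 went from 57.8% to 81.5% of the reads in heart. In brain and lung more miRNAs were lower than higher under both.

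**Figure D5:**
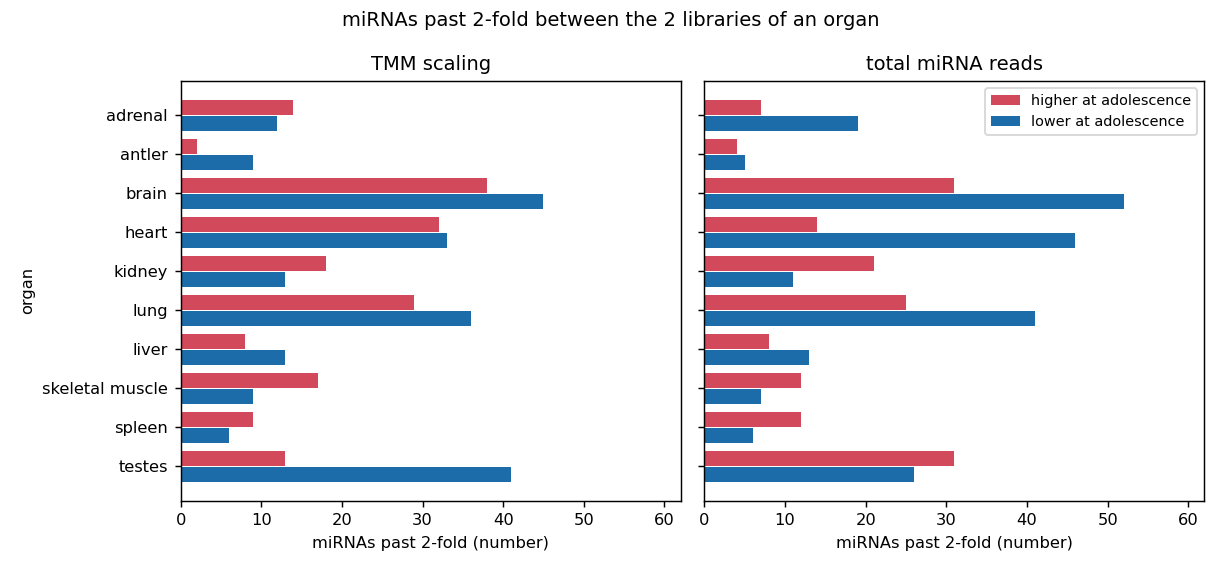
Number of miRNAs past 2-fold between the 2 libraries of an organ, higher (red) and lower (blue) at adolescence, after TMM scaling (left) and scaled to total miRNA reads (right). Brain, lung and heart have the most under both, and the split in testes turns from 13 higher and 41 lower to 31 and 26.

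The largest rise and the largest fall in each organ were taken among miRNAs with at least 50 reads in 1 of its libraries. In brain these were miR-197 (646 to 25237 RPM, with 5046 RPM at adult and 2908 at aged) and miR-135b (3884 reads to 1, with 366 RPM at adult and 722 at aged), so the adolescence brain lay outside the other 3 stages for both. In lung they were miR-135a (1 to 52 reads) and miR-2904 (61 reads to 0). In heart miR-208b, which lies in the slow myosin gene MYH7, went from 18.2 to 78.1 RPM (47 and 200 reads) and miR-433 from 42.2 to 0.781.

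In antler these were miR-26a (7498 to 19247 RPM) and miR-409b (2436 to 892 RPM), in kidney miR-135a (1639 to 5326) and miR-7 (9425 to 3533), and in liver miR-216b (91.3 to 512) and miR-409a (482 to 149). Adrenal had miR-33a (25.5 to 81.8) and miR-2887 (83.0 to 9.35), and spleen miR-374a (24.7 to 115) and miR-433 (393 to 140). Skeletal muscle had miR-22-5p (20.6 to 69.7) and miR-409a (99.4 to 11.2), and testes miR-133a (80.3 to 2677) and miR-493 (103 to 0). A name of the DLK1-DIO3 cluster had the largest fall in 6 of 10 organs, which were antler, heart, liver, skeletal muscle, spleen and testes. The cluster held 7 of the 110 tested names. The count comes from the same differences as the lower level of the cluster given above, so it is no separate result. In testes the fall was from 55 reads to 0 in a shallower library.

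The miRNAs most like the first called name in each direction were found by Pearson's r of the 10 paired differences. For miR-133c they were miR-126-3p (0.65), miR-1 (0.62) and miR-106a (0.62). For miR-409a they were miR-431 (0.76), miR-677 (0.58) and miR-424-5p (0.51). With 10 organs that share their deer, these values are descriptions.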

How the data were processed

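Total RNA of 3 deer was pooled per organ and stage and small RNA was sequenced. Per the labels and the study's methods, the authors removed adapters and short reads (CASAVA and bcl2fastq 1.8.4 are named in the submitters' processing notes, with Bowtie), set aside other RNA classes, matched reads to miRBase and predicted further miRNAs with miRDeep. The deposited values are RPM, reads per 1000000 miRNA reads of a library, although the column header says tpm. All 7982 values lay within 0.01 of whole reads, which gave the reads. The antler tables name miR-148c where the other organs have miR-2957, and both were taken as miR-2957. Predicted miRNAs were left out.

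The 20 libraries were fitted with limma 3.58.1 (trend) in R 4.3.3 on log2(RPM + 1), with organ as the block, after TMM scaling with edgeR 4.0.16 and with Benjamini-Hochberg adjustment over 110 names. Organs pair the stages, since an organ's libraries share their label. The pipeline was tested on simulated data. edgeR and DESeq2 1.42.0 on recovered reads were alternatives, as edgeR on the count table would have been the main test had the authors deposited counts. Exact tests and summaries used Python 3.11.15.

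Named were called miRNAs, filled to 8 per direction by number of organs agreeing, then the tested members of 24 lists, the extremes of each organ, the 10 most abundant, and the 3 most like the first called name in each direction. The members of the comparison and the lists were chosen with earlier results of these data known.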

Additional observations from a re-analysis of the deposited data

Results flagged for a closer look

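In 26 sets of 10 paired differences, the highest or lowest organ was tested for its distance from the others, and chance marks about 1 in 20 such sets. Brain lay apart for miR-374a (-5.37), miR-2887 (4.43), miR-214 (4.16) and let-7b with its second name miR-3596 (2.88 each). Testes lay apart for miR-133a (4.12) and miR-671 (-3.30), where miR-133a rested on 43 and 180 reads and miR-671 on 10 and 0.

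Predicted miRNAs, which the comparison left out, held at most 0.317% of the miRNA reads of a library, in juvenile liver.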

How the results depend on the processing

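Each stage was 1 pool of 3 deer, so deer and stage cannot be told apart, and depth limits scarce miRNAs such as miR-493. Calls by limma (1 higher, 2 lower) became 0 and 0 without the replicate block of organ, with depth as a covariate, with no minimum of reads, with 10 reads in 10 libraries, without skeletal muscle and heart, at an adjusted p below 0.01 with 2-fold, and in the exact sign-flip test; the causes were not tested. They were 1 and 2 by edgeR, which had 12 at an unadjusted p below 0.05, 10 and 2 by DESeq2 (median of all miRNAs 0.17, against -0.06 by TMM and -0.16 by total reads), 2 and 2 with 40 libraries or at an adjusted p below 0.1, and 2 and 4 without brain, lung and testes. Leaving out each organ in turn gave 0 to 8 higher and 0 to 14 lower, the most without brain. Counts with all or all but 1 organ agreeing (6 higher, 7 lower) were 7 to 15 and 5 to 17 with an organ left out, 19 and 30 without brain, lung and testes, 10 higher without miR-1, 4 lower with total reads and with near-identical names counted once, 1 lower with 10 reads in 10 libraries, 21 lower without skeletal muscle and heart, and 2 and 1 when all 10 had to agree; fewer organs make agreement easier. Counts past 2-fold (180 higher, 217 lower, of 969) were 74 and 99 at 4-fold and 104 and 142 with at least 50 reads. The test against the change from adult to aged gave 0 to 1 calls with an organ left out (let-7d without spleen). The 3 called miRNAs lost the call in 32 of 66 alternative fits that tested them (miR-133c in 9 of 21, miR-409a in 12 of 23 and miR-493 in 11 of 22). The 13 others in the plot of paired differences gained a call in 15 fits, and none of the 16 reversed its direction. Alternatives chosen after seeing the data were the fits without skeletal muscle and heart, the exact test of every name, the lists without brain, and the other minimums of reads for single miRNAs.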
